A study of Mus musculus with 8 samples.

Results

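The genes described here are 6 of the 43346 genes in the deposited table: Parp9, Parp10, Parp11, Parp12 and Parp14, which encode members of the poly(ADP-ribose) polymerase (PARP) family linked to antiviral defence, and Dtx3l, which encodes the partner of Parp9. They were chosen by name. All 6 were counted in every library and passed the filter on low counts. Polyadenylated RNA was sequenced from mouse macrophages of 3 kinds, each unstimulated (0 h, called rest here) and after 3 h of stimulation with lipopolysaccharide (LPS), a component of bacterial outer membranes. Bone marrow-derived macrophages (BMDM), grown with L929-conditioned medium, had 2 libraries per state. The cells labelled hMPDM and RAW 264.7 cells (RAW), a macrophage-like mouse tumour line, had 1 library per state, which gave 8 libraries in 6 groups. The labels name no genetic alteration in any group, and every LPS group differs from its rest group by the stimulus and by time. Neither the LPS dose nor the meaning of hMPDM is stated in the labels. Nothing in the labels tells whether replicate BMDM libraries came from separate cultures or animals, so a p-value measures only the spread between these libraries.

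PARP proteins move ADP-ribose from NAD+ onto proteins or nucleic acids. Many of those induced by interferon attach a single ADP-ribose unit rather than a chain, and several RNA viruses encode a macrodomain that takes this mark off again. LPS is sensed by TLR4, which leads through TRIF and IRF3 to interferon beta. Interferon beta then acts through its receptor on ISGF3, a transcription factor complex that includes STAT2 and IRF9 and binds interferon-stimulated response elements (ISRE). Parp9 is a macrodomain protein that forms a heterodimer with Dtx3l, a ubiquitin ligase of the Deltex family. Parp14 is a large mono-ADP-ribosyltransferase that also carries macrodomains. Parp10, Parp11 and Parp12 are mono-ADP-ribosyltransferases, and Parp12 has RNA-binding zinc fingers.

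Parp14, Dtx3l and Parp9 lie side by side on chromosome 16 in the mm10 build. Parp14 (ENSMUSG00000034422.10) spans chr16:35832874-35871544 on the minus strand, with 9306 exonic bases. Dtx3l (ENSMUSG00000049502.12) spans chr16:35926511-35939151 on the minus strand, with 5724 exonic bases, and begins 54966 bases beyond Parp14. Parp9 (ENSMUSG00000022906.11) spans chr16:35938470-35972605 on the plus strand, with 4872 exonic bases. The starts of Parp9 and Dtx3l face each other and their spans overlap by 682 bases. Of the exons, 458 bases are shared on opposite strands, which is 9.40% of the exonic bases of Parp9 and 8.00% of those of Dtx3l. The kit marks strand, but the strand setting of the counting is not stated, so the assignment of reads in those shared bases is uncertain. The other 3 genes lie apart. Parp10 (ENSMUSG00000063268.8) spans chr15:76231174-76243441 on the minus strand and shares 205 exonic bases, 4.80% of its own, with Plec on the same strand. Parp11 (ENSMUSG00000037997.8) spans chr6:127446840-127494241 on the plus strand, and Parp12 (ENSMUSG00000038507.6) spans chr6:39086410-39118349 on the minus strand.

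**Figure D1:**
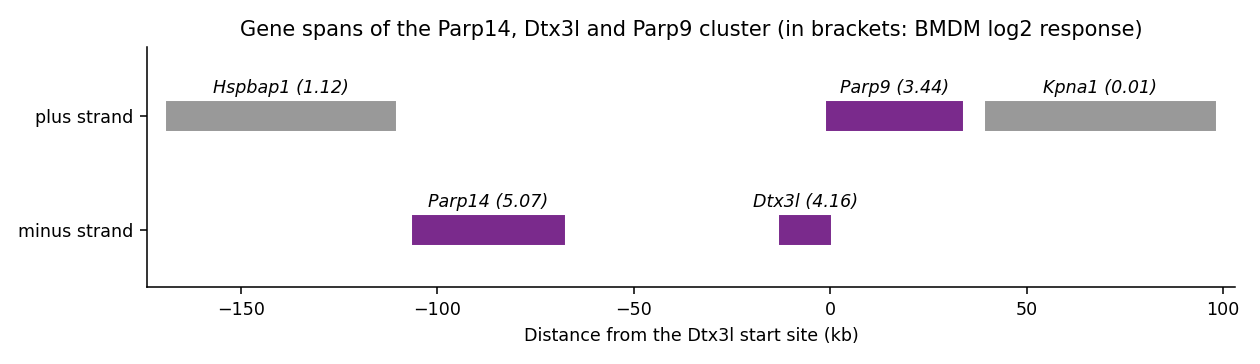
Spans of Parp14, Dtx3l and Parp9 (purple) and of the nearest protein-coding neighbours (grey), as distance in kb from the Dtx3l start site, drawn by strand. The BMDM log2 response to LPS in brackets was 5.07, 4.16 and 3.44 for the purple genes, 1.12 for Hspbap1 and 0.01 for Kpna1.

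Promoter windows, from 250 bases before to 50 bases after a start site, were matched in RefSeq (GRCm38.p6, the mm10 assembly) for 3 of the 6 genes and numbered 4 in all. They are shown because each can be read for the elements that interferon and NF-kB factors bind. The windows were searched on both strands for an ISRE core (GAAANNGAA), for a gamma-activated site (GAS, TTCNNNGAA) and for the NF-kB consensus. The Dtx3l window is chr16:35938978-35939277 (minus strand) and also contains an annotated Parp9 start site, that of GENCODE transcript Parp9-201 at position 35939011. The Parp11 window is chr6:127446590-127446889 (plus strand), and the Parp12 window is chr6:39118300-39118599 (minus strand). Capitals mark motif matches.
Dtx3l: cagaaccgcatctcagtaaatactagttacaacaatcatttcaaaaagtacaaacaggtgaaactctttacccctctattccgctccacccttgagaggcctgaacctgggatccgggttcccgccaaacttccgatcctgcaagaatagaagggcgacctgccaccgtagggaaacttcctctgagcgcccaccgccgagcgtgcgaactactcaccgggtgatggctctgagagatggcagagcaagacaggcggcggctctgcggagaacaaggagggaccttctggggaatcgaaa
Parp11: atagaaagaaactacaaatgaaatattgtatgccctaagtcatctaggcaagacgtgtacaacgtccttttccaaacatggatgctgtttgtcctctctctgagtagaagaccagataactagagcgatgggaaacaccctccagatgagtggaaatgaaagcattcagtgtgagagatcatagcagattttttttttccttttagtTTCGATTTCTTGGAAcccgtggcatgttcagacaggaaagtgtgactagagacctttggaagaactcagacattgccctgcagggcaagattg
Parp12: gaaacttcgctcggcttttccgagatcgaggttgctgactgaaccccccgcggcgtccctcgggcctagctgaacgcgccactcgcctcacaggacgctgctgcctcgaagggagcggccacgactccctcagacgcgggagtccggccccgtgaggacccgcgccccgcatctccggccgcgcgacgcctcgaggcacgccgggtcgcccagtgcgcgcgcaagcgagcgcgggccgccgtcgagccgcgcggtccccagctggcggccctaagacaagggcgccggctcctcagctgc
The Parp11 window alone of the 4 held a match. It held an ISRE core, read on the minus strand as TTCGATTTC, which starts 43 bases before the start site (offset -43). It also held a GAS, TTCTTGGAA, which starts 37 bases before it (offset -37), and the matches overlap in the run of capitals. Of all 32851 promoter windows of this length, 8.56% held an ISRE core, 8.30% a GAS and 4.51% the NF-kB consensus. The other Parp11 window, chr6:127453377-127453676, and the Dtx3l and Parp12 windows held none of these letters. A match is a description of letters and not a shown binding site.

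Library totals ranged from 3116434 counts (RAW at rest) to 19307312 counts (BMDM at rest, replicate 2). Levels are CPM, read counts relative to library size, scaled by the trimmed mean of M values (TMM), and per kb of exon where genes are compared with each other. The 8 macrophage markers were counted in every library, with a summed level of 14426 to 19109 CPM, of which Lyz2 was the largest part. Single markers differed between cell types. In RAW at rest 4 were higher and 4 lower than in BMDM, against 27.1% and 31.3% of all genes tested. Csf1r stood at 1617 CPM in RAW at rest and 1325 in BMDM at rest, and Mertk at 21.5 and 107 CPM. After LPS 1 was higher in RAW and 6 were lower, against 36.4% of all genes lower. Neutrophil markers summed to 16.7 and 17.6 CPM in BMDM at rest, 26.3 and 23.5 CPM in BMDM after LPS, 9.08 and 8.95 CPM in hMPDM at rest and after LPS, and 0.523 and 0 CPM in RAW. Single neutrophil genes went both ways in hMPDM at rest against BMDM at rest. Ngp (1.26 against 11.7 CPM) and Elane (0.661 against 1.01) were lower, and Mpo (3.85 against 2.42) and Prtn3 (3.25 against 1.76) were higher. Of these 6 neutrophil genes, Ly6g was at 0 in every group but BMDM at rest, and their part in the results below was not tested. T and NK cell markers reached 10.9 CPM, with 4 of 6 genes at 0 in all libraries, and the B cell, dendritic cell, mast cell, fibroblast and erythroid lists reached at most 2.14 CPM. The hMPDM library after LPS was also set against BMDM for a chosen set of genes, a measure taken in no other stimulated library. Pooled over 14 genes that BMDM expressed at rest and after LPS and that were nearly absent from hMPDM at rest, its level stood at 10.7% of the BMDM level after LPS, against 1.14% at rest, where their choice fixed a low value. For the 6 genes, the hMPDM responses, the ratio of Dtx3l to Parp9 and the differences from BMDM after LPS are also given with that share of the BMDM level taken out, while the CPM levels are as measured. The choice of genes kept only the rest value low, and what the 10.7% stands for was not tested. In bulk RNA, fewer cells of a type and less RNA per cell cannot be told apart.

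In BMDM all 6 genes rose after 3 h of LPS, from 2.63-fold for Parp11 to 33.6-fold for Parp14. Parp14 was the most changed and became by far the most abundant of the 6, and the neighbouring Dtx3l and Parp9 came next. For scale, 31.7% of the 12461 genes tested rose and 31.1% fell in BMDM at an adjusted p under 0.05. That is 3945 and 3870 genes, a split that scaling by total counts turned to 1997 and 7616. In a stricter test against a fold change of 2, all 6 again passed, against 8.27% of all genes. The median log2 response of the 6 genes was 3.14 and that of all genes tested was -0.02.

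Parp14 stood at 101 CPM in both BMDM libraries at rest, and at 3499.7 and 3276 CPM in the BMDM libraries after LPS. In hMPDM it was 229.7 CPM at rest and 3391 CPM after LPS, and in RAW 59.9 and 216 CPM. The stimulated BMDM and hMPDM libraries lay close together and far above every other library. The BMDM rise was 5.07 on the log2 scale (SE 0.0437, edgeR quasi-likelihood adjusted p = 2.57e-36), which ranked 136 among the 12461 genes tested.

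Dtx3l stood at 36.6 and 35.2 CPM in BMDM at rest and at 663 and 624 CPM after LPS. In hMPDM it went from 64.9 to 687 CPM, and in RAW from 30.1 to 55.4 CPM. The stimulated RAW library lay below hMPDM at rest, so for this gene the states overlap across cell types but not within BMDM. The BMDM rise of Dtx3l was 4.16 on the log2 scale (SE 0.0478, edgeR adjusted p = 2.06e-33), rank 221 of the genes tested.

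Parp9, the partner of Dtx3l, stood at 37.1 and 35.8 CPM in BMDM at rest and at 415 and 378 CPM after LPS. In hMPDM it went from 78.9 to 468 CPM, and in RAW from 49.4 to 62.7 CPM. As for Dtx3l, RAW after LPS lay below hMPDM at rest, while the BMDM states did not overlap. The BMDM rise of Parp9 was 3.44 on the log2 scale (SE 0.0515, edgeR adjusted p = 1.56e-30).

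Parp12, the zinc-finger member, stood at 45.9 and 45.6 CPM in BMDM at rest and at 328 and 327 CPM after LPS. Its levels in hMPDM were 84.1 CPM at rest and 409.7 CPM after LPS, and in RAW 68.8 and 79.6 CPM. Parp12 had the closest replicates of the 6 genes in stimulated BMDM, and both RAW libraries lay between the BMDM states. Its BMDM rise was 2.84 on the log2 scale (SE 0.0453, edgeR adjusted p = 8.39e-30).

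Parp10 stood at 27.1 and 27.0 CPM in BMDM at rest and at 171 and 186 CPM after LPS. In hMPDM it went from 45.9 to 301 CPM, and in RAW from 19.4 to 28.2 CPM. The stimulated hMPDM library was the highest and the stimulated RAW library stood at about the BMDM rest level. The BMDM rise of Parp10 was 2.73 on the log2 scale (SE 0.0568, edgeR adjusted p = 8.04e-27). Plec, whose exons overlap those of Parp10 on the same strand, rose by 1.10 in the same test (SE 0.0358, edgeR adjusted p = 7.26e-22).

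Per kb of exon, Parp11 was the lowest of the 6 in every library, and its response was the smallest in BMDM. It stood at 17.5 and 16.4 CPM in BMDM at rest and at 43.8 and 44.7 CPM after LPS, in hMPDM at 27.2 and 77.0 CPM, and in RAW at 8.11 and 11.8 CPM. The RAW values rest on 31 and 55 counts. The BMDM rise was 1.40 on the log2 scale (SE 0.0781, edgeR adjusted p = 7.38e-16), rank 981 of the genes tested.

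**Figure D2:**
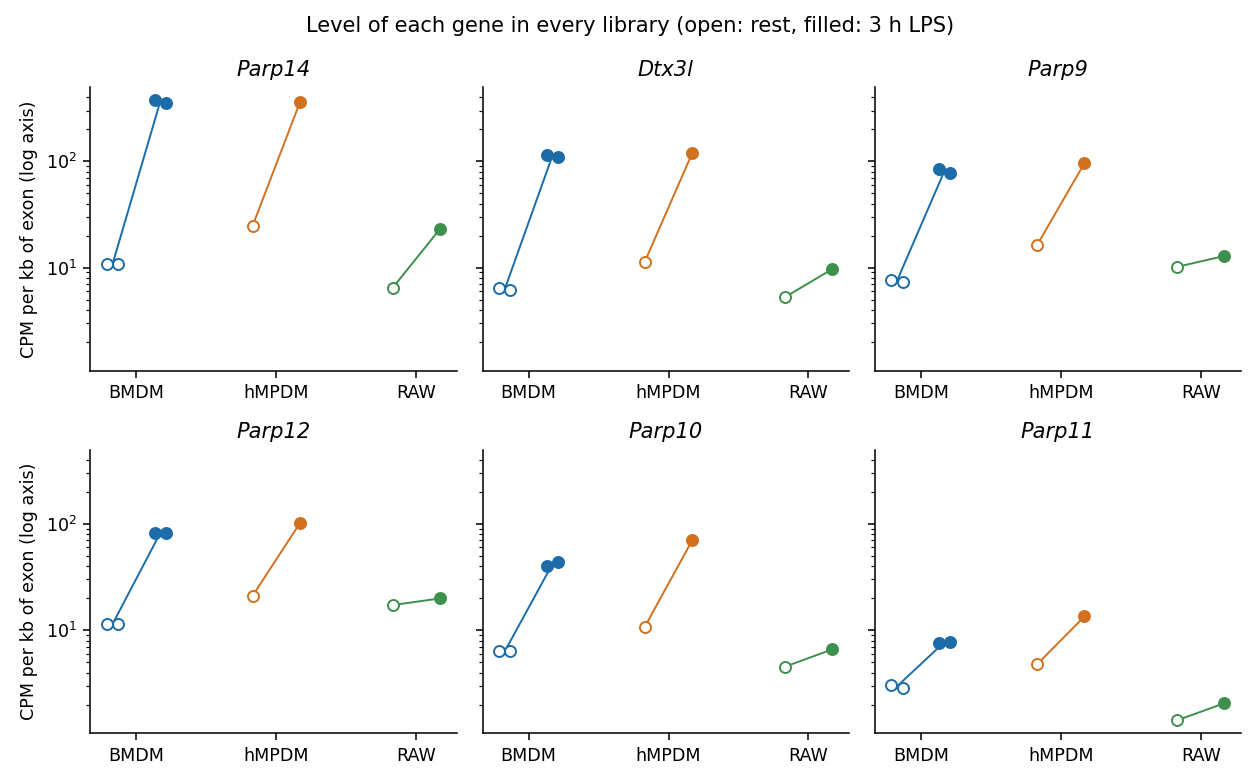
Level of each gene in every library, in TMM-scaled CPM per kb of exon on a log axis shared by all panels. Open points are rest libraries, filled points are 3 h LPS libraries, and lines join the mean of each state within a cell type. Parp14 in BMDM and hMPDM after LPS reached about 364 CPM per kb, and the RAW libraries changed least.

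Per kb of exon, the order of the 6 genes changed between the states. In BMDM at rest, Parp12 led with 11.5 ± 0.0482 CPM per kb (SD, n = 2) and Parp14 followed with 10.8 ± 0.0432 CPM per kb (SD, n = 2). Parp9 came next at 7.48 ± 0.192 CPM per kb (SD, n = 2). Parp10 at 6.32 ± 0.0156 and Dtx3l at 6.27 ± 0.174 CPM per kb (SD, n = 2) did not differ beyond their spread, and Parp11 was last at 2.96 ± 0.134 CPM per kb (SD, n = 2). After LPS the BMDM order was Parp14 at 364 ± 17.01, Dtx3l at 112 ± 4.81, and then Parp12 and Parp9. Those last 2, at 81.9 ± 0.0898 and 81.3 ± 5.32 CPM per kb (SD, n = 2), did not differ beyond their spread. Parp10 followed at 41.8 ± 2.46 and Parp11 at 7.74 ± 0.114 CPM per kb (SD, n = 2). In hMPDM, Parp14 led in both states, with 24.7 CPM per kb at rest and 364 after LPS. In RAW at rest Parp12 led with 17.2 CPM per kb and Parp14 came after Parp9 with 6.44, and after LPS Parp14 led with 23.2 CPM per kb over Parp12 with 19.9.

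The rise of Parp14 changed its share among the 6 genes, a sum that leaves out the other PARP genes. Of the CPM per kb summed over the 6 genes, Parp14 made up 23.8% and 24.1% in the BMDM libraries at rest and 53.2% and 52.4% after LPS. The share was 27.8% in hMPDM at rest and 47.5% after LPS (47.0% with the BMDM share taken out), and 14.3% and 31.2% in RAW. It was higher after LPS in each of the 3 cell types. The summed level itself was 45.8 and 44.9 CPM per kb in BMDM at rest, 707 and 672 after LPS, 88.8 and 767 in hMPDM, and 45.0 and 74.4 in RAW.

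Parp9 and Dtx3l work as a heterodimer, and the balance of their RNAs differed between the states. The ratio of Dtx3l to Parp9 counts per kb, taken within each library and so free of library scaling, was 0.839 and 0.836 in BMDM at rest and 1.36 and 1.41 after LPS. In hMPDM it was 0.701 (95% exact counting interval 0.646 to 0.760) at rest and 1.25 (1.18 to 1.32) after LPS, or 1.24 (1.17 to 1.31) with the BMDM share taken out. In RAW it was 0.518 (0.407 to 0.656) at rest and 0.752 (0.634 to 0.892) after LPS. The ratio was higher after LPS in all 3 cell types, and it crossed from below 1 to above 1 in BMDM and hMPDM but not in RAW. Exonic lengths set the absolute ratio, and so whether it crosses 1, while its fold change between states does not depend on them. The ratio of Parp12 to Parp9 went the other way in BMDM, from 1.51 and 1.55 at rest to 0.963 and 1.06 after LPS. It also fell in hMPDM, from 1.30 (1.21 to 1.40) to 1.07 (1.00 to 1.14), and was 1.07 with the BMDM share taken out. In RAW that ratio was 1.70 (1.40 to 2.06) and 1.55 (1.32 to 1.81), with overlapping intervals. No test over samples was run on these ratios.

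**Figure D3:**
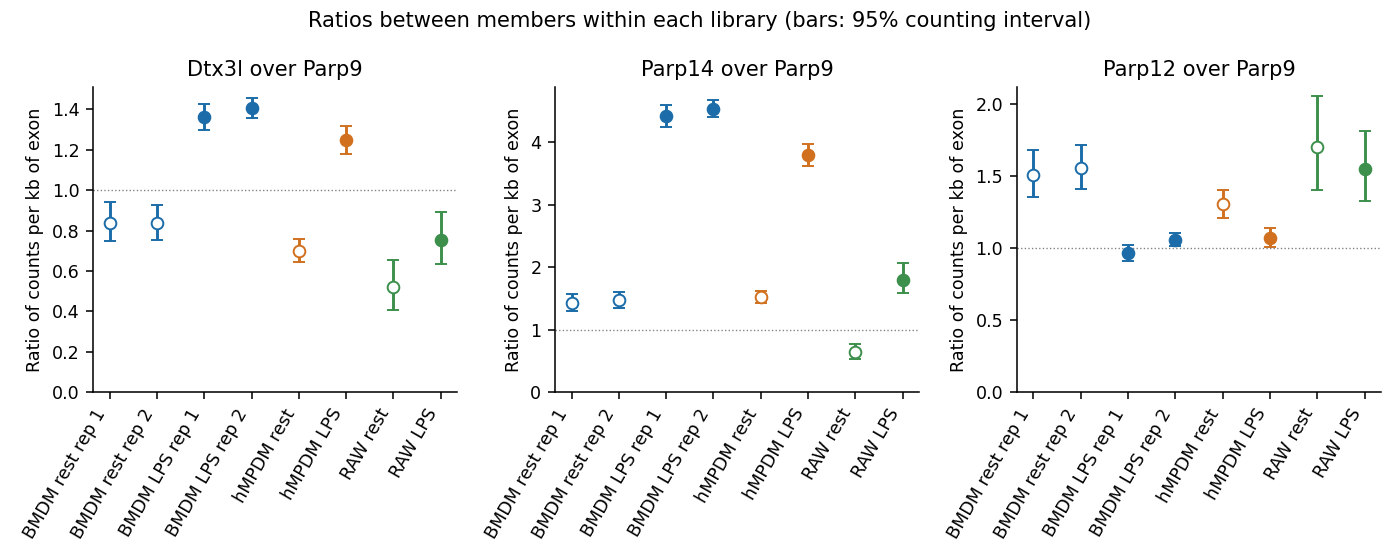
Ratios of Dtx3l, Parp14 and Parp12 to Parp9 (counts per kb of exon) in each of the 8 libraries, with 95% exact counting intervals. Open points are rest, filled points 3 h LPS, and the dotted line marks a ratio of 1. The Dtx3l to Parp9 ratio lay below 1 in every rest library and above 1 in BMDM and hMPDM after LPS.

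In hMPDM, with 1 library per state and no replicate check, all 6 genes were higher after LPS and 5 of 6 were at least 4-fold higher with at least 5 CPM, against 3.51% of all genes tested. Between BMDM replicates the same size rule found 1 gene at rest and 0 after LPS. Parp14 was 14.8-fold higher (95% exact counting interval 14.2 to 15.3) and Dtx3l 10.6-fold (9.87 to 11.3). Parp10 was 6.55-fold higher (5.99 to 7.17), Parp9 5.93-fold (5.54 to 6.36) and Parp12 4.87-fold (4.54 to 5.22). Parp11 was 2.83-fold higher (2.45 to 3.26). With the BMDM share taken out, the log2 ratios were 3.88 for Parp14, 3.41 for Dtx3l, 2.78 for Parp10, 2.59 for Parp9, 2.32 for Parp12 and 1.56 for Parp11. With libraries scaled by total counts alone, the log2 ratio of Parp12 was 1.90, below the 4-fold mark.

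In RAW, 0 of 6 genes were 4-fold higher after LPS, against 0.602% of all genes tested. Parp14 was 3.60-fold higher (3.12 to 4.18) and Dtx3l 1.84-fold (1.47 to 2.32). Parp10 was 1.46-fold higher (1.09 to 1.97) and Parp9 1.27-fold (1.05 to 1.53). The intervals of Parp11, 1.45-fold (0.918 to 2.33), and of Parp12, 1.16-fold (0.985 to 1.36), included 1. These intervals cover counting error only.

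The responses in hMPDM and RAW were next compared with that in BMDM, by a test of the difference itself. This fit takes the spread from the BMDM pairs and applies it to the single libraries of hMPDM and RAW. Both comparisons and those that follow share the BMDM libraries, so their values are not independent. The response was smaller in hMPDM than in BMDM for 4 of 6 genes, against 3.89% of all genes tested. The difference was -1.19 on the log2 scale for Parp14 (SE 0.0687, edgeR adjusted p = 1.30e-13) and -0.87 for Parp9 (SE 0.0894, edgeR adjusted p = 3.26e-08). It was -0.76 for Dtx3l (SE 0.0856, edgeR adjusted p = 1.65e-07) and -0.55 for Parp12 (SE 0.0790, edgeR adjusted p = 9.52e-06). Parp10 at -0.02 (SE 0.0982, edgeR adjusted p = 0.951) and Parp11 at 0.10 (SE 0.133, edgeR adjusted p = 0.773) did not pass. With the BMDM share taken out of hMPDM, the differences were -1.19, -0.84, -0.75 and -0.52 for Parp14, Parp9, Dtx3l and Parp12, and 0.04 and 0.17 for Parp10 and Parp11, which again did not pass (edgeR adjusted p = 0.886 and 0.556). Setting the biological coefficient of variation at 10% ended the calls of Parp9 (adjusted p = 0.0693), Dtx3l (0.193) and Parp12 (0.671) in edgeR's likelihood ratio test, and that of Parp14 held. In the stricter 2-fold test, 0 of these 4 differences passed.

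The response was smaller in RAW than in BMDM for 5 of 6 genes, against 12.7% of all genes tested (1246 genes larger and 1586 smaller, or 3052 and 987 under scaling by total counts). The largest differences were those of Dtx3l at -3.28 (SE 0.202, edgeR adjusted p = 1.24e-13), Parp14 at -3.22 (SE 0.146, edgeR adjusted p = 1.20e-16) and Parp9 at -3.09 (SE 0.172, edgeR adjusted p = 1.24e-14), the 3 genes of the chromosome 16 cluster. Parp12 followed at -2.63 (SE 0.133, edgeR adjusted p = 1.54e-15) and Parp10 at -2.19 (SE 0.239, edgeR adjusted p = 1.91e-08). Parp11, at -0.86 (SE 0.328, edgeR adjusted p = 0.0590), did not pass. It passed without BMDM rest replicate 1 (adjusted p = 0.0425) or without BMDM LPS replicate 1 (adjusted p = 0.0490).

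**Figure D4:**
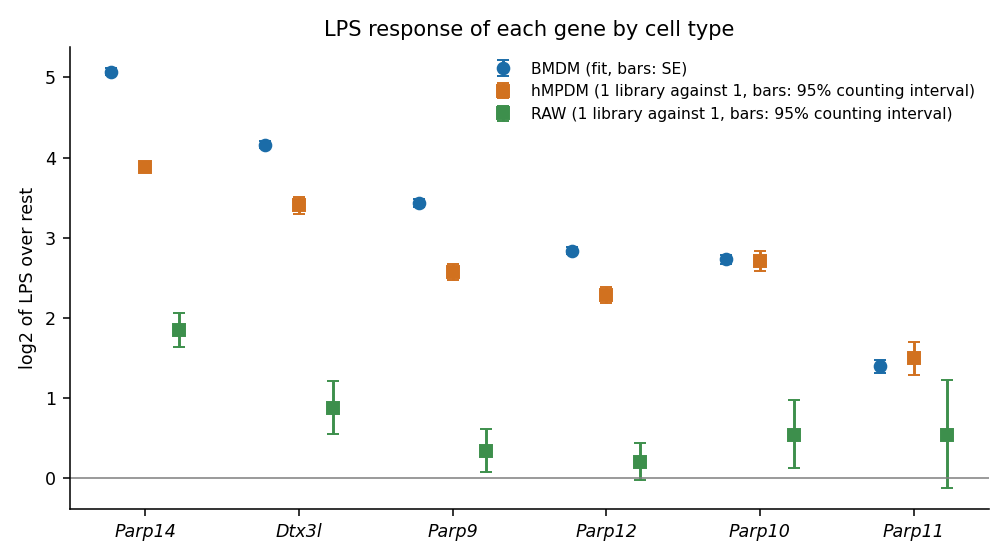
LPS response of each gene by cell type, as log2 of LPS over rest. BMDM points are fitted values with their SE as bars. The hMPDM and RAW points compare 1 library with 1 and carry 95% counting intervals. RAW lay lowest for every gene, and hMPDM lay below BMDM for Parp14, Dtx3l, Parp9 and Parp12.

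At rest, all 6 genes were higher in hMPDM than in BMDM, against 19.0% of all genes tested. The difference was 1.19 for Parp14 (SE 0.0527, edgeR adjusted p = 1.52e-17) and 1.11 for Parp9 (SE 0.0708, edgeR adjusted p = 8.04e-14). It was 0.88 for Parp12, 0.86 for Dtx3l, 0.76 for Parp10 and 0.69 for Parp11, with edgeR adjusted p-values from 5.68e-13 to 5.07e-07. Of the 6, Parp14 alone passed the stricter 2-fold test. The 17 interferon-stimulated reference genes, such as Isg15 and Ifit1, were higher in hMPDM at rest in 15 cases and lower in 0, with a median of 2.13. The rest libraries are part of both the level and the response, so a higher rest level enters the smaller hMPDM response by construction.

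After LPS, the hMPDM and BMDM levels of Parp14 and Dtx3l lay close. Parp14 differed by 0.00 (SE 0.0432, edgeR adjusted p = 0.988) and Dtx3l by 0.10 (SE 0.0483, edgeR adjusted p = 0.153), although Dtx3l passed without BMDM LPS replicate 1 (adjusted p = 0.0268). The other 4 genes were higher in hMPDM, against 12.5% of all genes tested. The differences were 0.79 for Parp11 (SE 0.0975, edgeR adjusted p = 1.52e-07), 0.74 for Parp10 (SE 0.0607, edgeR adjusted p = 4.83e-11), 0.32 for Parp12 (SE 0.0509, edgeR adjusted p = 9.24e-06) and 0.25 for Parp9 (SE 0.0547, edgeR adjusted p = 0.000822). With the BMDM share taken out they were 0.86, 0.81, 0.35 and 0.27, and those of Parp14 and Dtx3l were -0.00 (edgeR adjusted p = 0.994) and 0.10 (edgeR adjusted p = 0.119). The call of Parp9 was lost in DESeq2 (adjusted p = 0.130), and those of Parp9 (0.532) and Parp12 (0.322) at a coefficient of variation of 10%.

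RAW at rest differed from BMDM in both directions. Parp12 was higher in RAW by 0.59 (SE 0.1001, edgeR adjusted p = 9.79e-06) and Parp9 by 0.44 (SE 0.127, edgeR adjusted p = 0.00392), which makes 2 of 6 against 27.1% of all genes tested. Parp11 was lower by a log2 difference of -1.06 (SE 0.227, edgeR adjusted p = 0.000220), Parp14 by -0.75 (SE 0.103, edgeR adjusted p = 3.07e-07) and Parp10 by -0.48 (SE 0.169, edgeR adjusted p = 0.0158), which makes 3 of 6 against 31.3%. Both shares are near those of all genes (3381 higher and 3901 lower, or 4485 and 2868 under scaling by total counts). Dtx3l at -0.25 (SE 0.142, edgeR adjusted p = 0.131) did not pass. The call of Parp10 was lost under scaling by total counts (adjusted p = 0.158), in DESeq2 (0.0997) and at a coefficient of variation of 10% (0.103), which also ended that of Parp9 (0.0753). After LPS all 6 genes were lower in RAW than in BMDM, against 36.4% of all genes tested (3715 higher and 4534 lower, or 6105 and 2813 under scaling by total counts). The differences ran from -3.97 for Parp14 and -3.53 for Dtx3l to -1.91 for Parp11, with edgeR adjusted p-values of at most 1.43e-11.

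Across the 3 cell types, the levels at rest followed no single order. Parp14, Dtx3l, Parp10 and Parp11 were highest in hMPDM and lowest in RAW, although the Dtx3l levels of BMDM and RAW did not differ in the test above. Parp9 and Parp12 were highest in hMPDM and lowest in BMDM. The hMPDM and RAW libraries were not tested against each other. A single LPS term over the 3 cell types, in which BMDM weighs most, rose for all 6 genes, against 25.0% of all genes tested (3110 higher and 3011 lower, or 1623 and 6219 under scaling by total counts). It was 4.06 for Parp14 (SE 0.572, edgeR adjusted p = 0.00173), 3.31 for Dtx3l (SE 0.545, edgeR adjusted p = 0.00299), 2.57 for Parp9 (SE 0.508, edgeR adjusted p = 0.00600), 2.36 for Parp10 (SE 0.332, edgeR adjusted p = 0.00171), 2.13 for Parp12 (SE 0.428, edgeR adjusted p = 0.00641) and 1.34 for Parp11 (SE 0.121, edgeR adjusted p = 0.000353). This term takes the response as equal in the 3 cell types, although that of 5 of the 6 genes differed between RAW and BMDM above. Its errors therefore also hold the differences between cell types. Parp11 had the smallest term and the smallest error of the 6.

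Of 11 other PARP genes tested in BMDM, 5 rose, 3 fell and 3 did not pass, with a median log2 response of 0.17. Among all genes tested 31.7% rose and 31.1% fell, so these counts lie near the background. Those that rose were Parp8 (2.04), Tiparp (1.99), which encodes the mono-ADP-ribosyltransferase also called PARP7, and Zc3hav1 (1.82), which encodes the zinc-finger antiviral protein ZAP that binds viral RNA. Parp3 (1.26) and the vault protein gene Parp4 (0.91) also rose. Parp16 (-0.56) and the DNA-damage-responsive Parp1 (-0.37) and Parp2 (-0.23) fell. Parp6 (0.17) and the tankyrase genes Tnks (-0.05) and Tnks2 (0.05) did not pass. Each of these responses was below that of every one of the 6 genes except Parp11. Zc3hav1l, a relative of ZAP without a PARP domain, fell by 0.94. All 3 genes for ZAP cofactors rose, N4bp1 by 2.42, Trim25 by 1.70 and Khnyn by 1.07.

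Of the other Deltex ligase genes, 3 of 4 were tested. Dtx2 rose by 1.88 and Dtx4 by 0.44, and Dtx3 fell by 0.19 on the log2 scale. Genes for enzymes that take ADP-ribose off proteins changed little. Of 7 tested, Adprh rose by 0.48, and Oard1 (-0.49), Nudt16 (-0.37) and Adprhl2 (-0.28) fell. Parg, which degrades ADP-ribose chains, stood at 0.02, Macrod1 at 0.00 and Macrod2 at 0.67, and these 3 did not pass. Of 8 tested genes for NAD enzymes, 3 rose and 2 fell. The background for each of these lists is all genes tested, of which 31.7% rose and 31.1% fell in BMDM. Nampt, the rate-limiting enzyme of NAD salvage, rose by 2.25, from 141 ± 1.03 to 671 ± 22.2 CPM (SD, n = 2). The NAD-cleaving Cd38 rose by 3.13 from 3 and 5 counts to 11 and 27 counts, and Bst1 rose by 0.36, which turns negative under scaling by total counts. Nmrk1 (-0.99) and Nmnat3 (-0.76) fell. Scaling by total counts lowers every BMDM response by 0.37 on the log2 scale (shift -0.37), and leaves the falls larger.

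**Figure D5:**
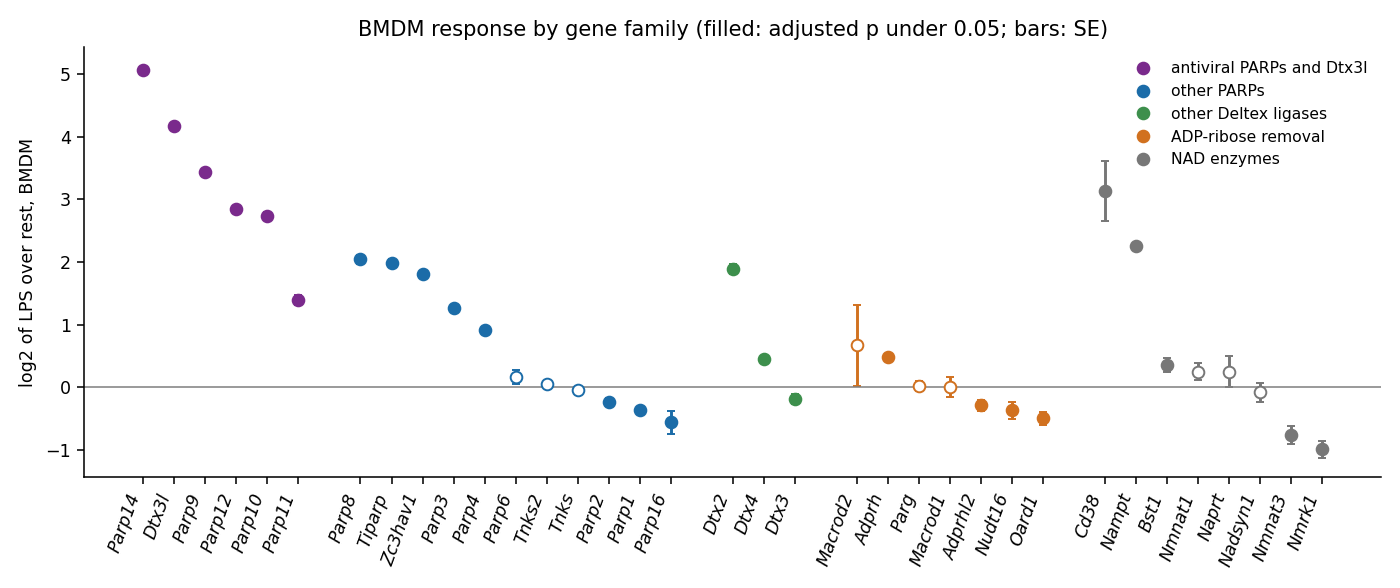
BMDM log2 response to LPS by gene family, with SE as bars, filled points for an adjusted p under 0.05 and open points for the rest. The 6 antiviral PARP and Dtx3l genes ran from 1.40 to 5.07, and the 11 other PARP genes from -0.56 to 2.04.

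The signalling genes upstream of interferon were measured alongside. Of 10 genes from TLR4 to interferon, 8 rose (Ticam1, at 0.17, turns negative under scaling by total counts), 1 fell and 1 did not pass in BMDM. Of all genes tested, 31.7% rose and 31.1% fell in BMDM, which is the background for each list here. The co-receptor gene Cd14 rose by 2.61 and the kinase gene Ikbke by 2.66, the receptor gene Tlr4 fell by 0.48, and Irf3 stood at 0.11 (edgeR adjusted p = 0.191). Ifnb1, the gene for interferon beta, was at 0 counts in all rest libraries, at 18 and 42 counts in stimulated BMDM, at 17 in stimulated hMPDM and at 1 in stimulated RAW. Scaled for library size, these stimulated levels were 2.72 and 3.32 CPM in BMDM, 3.71 CPM in hMPDM and 0.214 CPM in RAW. All 6 listed genes for the interferon receptor, its kinases and ISGF3 rose, with a median of 1.19. Stat2 rose by 3.23 and Irf9 by 1.99, and the smallest rise, Jak1 at 0.39, is about the size of the scaling shift. Of 6 further transcription factor genes 5 rose, with Irf7 at 5.91 and Irf1 at 5.11, and Irf8 stood at -0.06 (edgeR adjusted p = 0.348). All 17 interferon-stimulated reference genes rose, with a median of 6.88, above the 3.14 of the 6 genes. At least 4-fold higher levels were seen for 12 of these 17 in hMPDM, also with the BMDM share taken out, and for 3 of 17 in RAW. Of all genes tested, 3.51% were at least 4-fold higher with at least 5 CPM in hMPDM, and 0.602% in RAW.

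Of the 6 genes for the interferon receptor, its kinases and ISGF3, the response was smaller in hMPDM than in BMDM for 3 and larger for 1, Tyk2 (0.28, edgeR adjusted p = 0.0269), and 2 did not pass. In RAW it was smaller for all 6. Of all genes tested, 3.89% had a smaller response in hMPDM than in BMDM, and 12.7% in RAW. The response of Stat2 was smaller in hMPDM by a log2 difference of -0.85 (edgeR adjusted p = 1.71e-10) and in RAW by -3.06 (edgeR adjusted p = 1.02e-15). For Irf9 the differences were -0.50 (edgeR adjusted p = 0.000405) and -1.45 (edgeR adjusted p = 5.96e-08). With the BMDM share taken out of hMPDM, the hMPDM differences were -0.80 for Stat2, -0.47 for Irf9 and 0.32 for Tyk2. Stat2 stood at 76.3 CPM in BMDM, 187 in hMPDM and 51.5 in RAW at rest, and at 718, 979.8 and 58.0 CPM after LPS. Like Parp12 and Parp9, it differed little between the RAW libraries.

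Protein-coding genes near the 6 were counted as well. Of 16 protein-coding neighbours within 100 kb, 15 were tested, 7 rose (Fam162a, at 0.19, turns negative under scaling by total counts), 3 fell and 5 did not pass, with a median log2 response of 0.19 and a range of -1.50 (Cracr2a) to 2.11 (Dirc2). Among all genes tested, 31.7% rose and 31.1% fell. Of the genes that flank the chromosome 16 cluster, Kpna1, 6145 bases beyond Parp9, stood at 0.01 (edgeR adjusted p = 0.818), and Hspbap1, 4428 bases from Parp14, rose by 1.12. Next to Parp10, Grina rose by 0.50. Next to Parp12, Tbxas1 fell by 0.53 and Kdm7a rose by 1.48 on the log2 scale.

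The levels of the 6 genes were also compared over the 8 libraries with Pearson's r of log2 CPM. This is a description, since the libraries share cell types and states, and 4 of the 8 are BMDM. Among the 6 genes, r ran from 0.851 (Parp11 and Parp12) to 0.997 (Parp9 and Parp12), and was 0.991 for Parp9 and Dtx3l. The 3 other genes with the highest r were Tfec, Ifit2 and Calhm6 for Parp9 (0.999, 0.998 and 0.998) and Dock10, Surf4 and Itgav for Dtx3l (1.00, 0.999 and 0.998). They were Susd6, Rnf19b and Gm43302 for Parp14 (0.997, 0.997 and 0.996) and Plscr1, Mov10 and Calhm6 for Parp12 (0.997, 0.996 and 0.996). They were Coa5, Ccnl1 and Mier3 for Parp10 (0.998, 0.997 and 0.997) and H2-K1, Bri3 and Dclre1c for Parp11 (1.00, 0.998 and 0.996). Calhm6 was named for both Parp9 and Parp12.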

How the data were processed

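The deposited table holds raw counts of reads per gene, with exonic length (the authors' values), and no normalization. Tools listed in the submitters' processing notes, without versions, are featureCounts, STAR, cutadapt, bedtools and SAMtools, with the mm10 build. RNA was extracted with TRIzol and a KAPA stranded kit was used, per the labels' protocols. Of 10 value columns, 8 matched a sample. The other 2 carry hMPDM names that match no sample used here, and were not analysed here. Symbols were found for 42462 of 43346 identifiers. Promoters came from RefSeq (GRCm38.p6) and transcripts from GENCODE.

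Counts were analysed in edgeR 4.0.16 (R 4.3.3) with TMM scaling. The filterByExpr function kept 12461 genes. The quasi-likelihood fit had 1 coefficient per group over all 8 libraries, with 2 residual degrees of freedom from the BMDM pairs. A fit of cell type plus LPS, with 4, gave the single LPS term. Adjusted p-values are Benjamini-Hochberg values over all genes tested, called at 0.05. An SE here is |log2| over the square root of F. In the fit by group its spread comes from the BMDM pairs, and from no hMPDM or RAW replicates. Single libraries were compared by ratio, with exact conditional 95% intervals. The size rule was a log2 ratio of at least 2 (prior count 2), with the higher library at 5 CPM or more. These intervals cover counting error only. Reads carry no molecular identifiers, so the intervals may be too narrow. The share of the BMDM level in stimulated hMPDM was estimated from genes with 5 CPM or more in each BMDM state and at most 5% of that level in hMPDM at rest. The BMDM replicates differed by more than sampling noise (chi-square per degree of freedom 1.63 at rest and 1.70 after LPS).

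The genes, gene lists and tests were chosen with earlier results of these data known. Named were all 6 genes, list members by role, the 3 genes most correlated with each over 8 libraries, and protein-coding neighbours within 100 kb. A gene of the interferon signalling list is not reported here. Alternatives were scaling by library size, size factors as in DESeq2, DESeq2 1.42.0, no low-count filter, a replicate block, a coefficient of variation of 10%, leaving out each BMDM library, BMDM alone, taking a BMDM share out of stimulated hMPDM, other size rules, and, chosen after seeing the data, a test against a fold change of 2.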

Additional observations from a re-analysis of the deposited data

Results flagged for a closer look

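Differences between cell types in the LPS response were picked out wherever the test of the difference itself passed. For hMPDM against BMDM this held for 4 of the 6 genes, with log2 differences of -1.19 for Parp14, -0.87 for Parp9, -0.76 for Dtx3l and -0.55 for Parp12. For RAW against BMDM it held for 5 genes, with -3.28 for Dtx3l, -3.22 for Parp14, -3.09 for Parp9, -2.63 for Parp12 and -2.19 for Parp10. Each rests on 1 library per state in hMPDM or RAW. For the 17 interferon-stimulated reference genes, the median log2 difference in response was -1.73 for hMPDM against BMDM and -5.72 for RAW against BMDM. Groups of 1 or 2 libraries are too small for a test of outlying samples.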

How the results depend on the processing

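For the 6 genes, 60 values were recomputed under the alternatives, which gave 564 values. Of these, 519 were unchanged, which means the same direction and call or, for single-library ratios, a shift within counting error. A further 31 kept direction and lost the call, 3 gained it and 5 changed sign. The last 6, the single-library hMPDM ratios under scaling by library size, moved by more than counting error. In BMDM, the response of each of the 6 genes kept its direction and call under every alternative run.

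At a coefficient of variation of 10%, genes of the 6 lower in the hMPDM response against BMDM numbered 1 instead of 4, genes of the 6 higher in RAW at rest 1 instead of 2, and genes of the 6 higher in hMPDM after LPS 2 instead of 4. In the test against a fold change of 2, those counts were 0, 0 and 0, genes of the 6 lower in RAW at rest were 0 instead of 3, genes of the 6 higher in hMPDM at rest 1 instead of 6, and genes of the 6 with a higher single LPS term 3 instead of 6. At a log2 ratio of at least 1, 1 gene (Parp14) in place of 0 was higher in RAW. The causes were not tested, beyond the wider spread or larger fold that these alternatives set.

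The 2 values nearest 0 that changed sign passed no test. The hMPDM against BMDM response of Parp10 ran from -0.0777 to 0.0467 when 1 BMDM library was left out and was 0.0417 with the BMDM share taken out. The difference of Parp14 after LPS ran from -0.0473 to 0.0460 when 1 library was left out and was -0.00111 with that share taken out.

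The BMDM libraries carry replicate numbers 1 and 2 in both states. Deviations of same-numbered libraries had a correlation of -0.0346, so the numbers were not taken as pairs. With the replicate block, all 6 BMDM genes still rose, no call of any of the 6 genes changed, and the Parp14 difference after LPS was -0.0280.

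Over all genes, BMDM calls were 3945 higher and 3870 lower, against 1997 and 7616 under scaling by library size, 2431 and 1728 in DESeq2, and 1030 and 525 against a fold change of 2. At a coefficient of variation of 10%, 2525 rose. In DESeq2 the genes with a response lower than in BMDM were 143 instead of 485 for hMPDM and 956 instead of 1586 for RAW, and genes higher in hMPDM were 647 instead of 2371 at rest and 645 instead of 1562 after LPS. DESeq2 called 2098 genes higher and 2365 lower in RAW at rest, and 2451 instead of 3715 higher in RAW after LPS. At a coefficient of variation of 10%, those hMPDM counts were 73, 723 and 522, and the RAW response was lower for 759. Against a fold change of 2 they were 23, 165 and 90, with 367 for the RAW response, 713 and 1110 for RAW at rest, 1763 lower in RAW after LPS and 585 for the single LPS term. Without BMDM LPS replicate 2, 1969 instead of 3011 genes fell under that term. Ordering the genes by protein length was not run. With a BMDM library left out, 1 residual degree of freedom remained. Parp11 in RAW, at 31 and 55 counts, is limited by depth.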
